A study of Abies pinsapo with 12 samples.

Results

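The 200 most abundant needle transcripts of Spanish fir (Abies pinsapo) were the assembled transcripts with the highest mean abundance over the 12 libraries of the series. Abundance was taken as CPM, the reads counted on a transcript per 1000000 reads counted in its library. They were 200 of 76481 transcripts, or 0.262% of the assembly. All 200 passed the filter on low values of at least 2 CPM in at least 2 libraries, as did 23352 transcripts in all. The rule used the levels themselves, so the levels below describe the members and carry no test, whereas the comparison between colours did not enter the choice.

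A conifer needle is an evergreen leaf, and in leaves a large part of the messenger RNA usually comes from a small number of genes. Such genes typically encode the carbon-fixing enzyme RuBisCO, the chlorophyll-binding proteins of the light-harvesting antennae, and proteins of stress tolerance and cell upkeep. Early light-induced proteins, which resemble the antenna proteins and accumulate in thylakoids under strong light or cold, are one example of the stress group. Chalcone synthase, the enzyme that opens the flavonoid pathway, is an example from pigment metabolism.

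Needles were taken in spring from field-grown adult firs of Sierra de las Nieves, in Spain, that had been picked by the colour of their needles. There were 6 bluish and 6 green trees, with 1 polyA RNA library per tree and no treatment, and young needles still developing were left out. Trees of a natural stand differ in genotype, microsite and history, and colour cannot be told apart from any of these where they go together. The deposited extraction text speaks of roots of pine seedlings, whereas the labels of all libraries and the paper's methods give fir needles.

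The library totals ran from 66111176 to 79064155 counts in bluish trees and from 64978939 to 91973481 in green trees. The TMM factors, which scale libraries to each other, lay between 0.958 and 1.04. No member had fewer than 1392 counts in any library, so that counting error was small beside the differences between trees. CPM counts reads and not molecules, and a long transcript collects more reads than a short one, so the ranks order reads and not copies of an RNA. Transcript lengths were not used here.

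The identity of most members could not be given. The part of the paper's annotation tables at hand covers the transcripts with the widest colour differences, and it described 5 members and gave a gene ontology term to 7 others. The remaining 188 members carried neither, among them each of the 10 most abundant. Of the described members, ap_6046 and ap_76671 matched an early light-induced protein, ap_2423 a chalcone synthase of silver fir, ap_2788 a hexosyltransferase, and ap_2371 an unnamed conifer transcript, whereas ap_14368 and ap_74758 were listed without a match. The needle label could be checked only in part for this reason. Described RuBisCO small subunit transcripts of plant match, ap_2598 and ap_81338, had TMM-scaled means of 15.4 and 10.7 CPM and were not members, and whether an undescribed member encodes RuBisCO was not tested.

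The members held a similar part of every library. Their share of the counts was 32.4% at the lowest, 33.4% at the median and 34.3% at the highest in bluish trees. In green trees the lowest share was 32.0%, the median 33.4% and the highest 35.3%. Both colours overlapped over nearly their whole range, with green tree 2 at the top and green tree 4 at the bottom. Between 697 and 909 transcripts were enough to hold 50% of a library.

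Within the members the counts were unevenly spread. The first 10 held 9.87% of the counts on average and the first 50 held 20.5%. A mean over 5000 CPM was reached by 9 members and a mean over 1000 CPM by 91, and the median of the 200 means was 948 CPM. The first member, ap_2315, had 45.6 times the mean CPM of the last. At the edge of the rule, ap_2528, ap_73488 and ap_4635 were the last inside with 510.3, 509.3 and 507.8 CPM, and ap_5643, ap_2472 and ap_6592 the first outside with 506.9, 505.7 and 504.9 CPM. The 6 means differ by less than any of the 3 inside differed between trees.

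**Figure D1:**
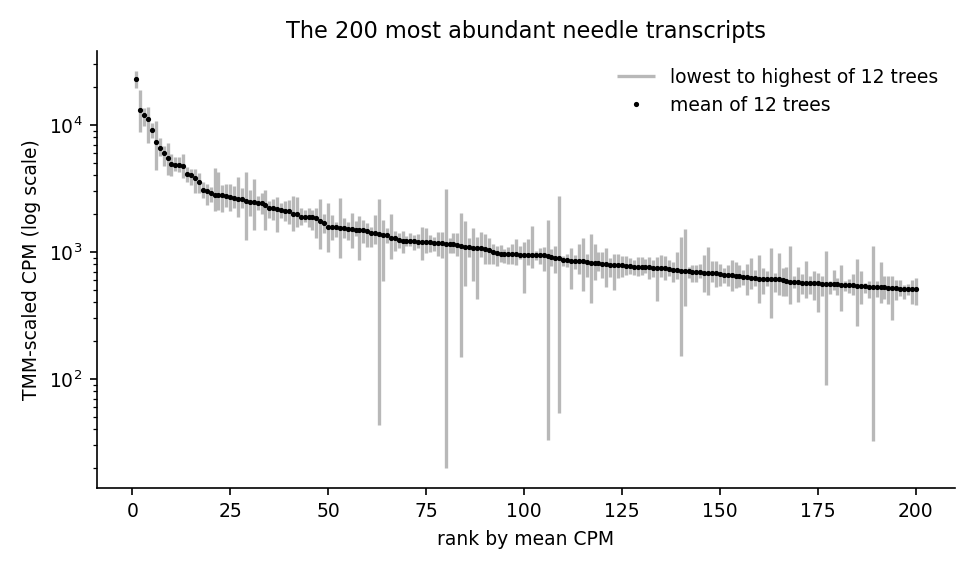
TMM-scaled CPM (log scale) of the 200 members against their rank by mean CPM, with the mean of the 12 trees as a point and the lowest to highest tree as a grey line. Most lines are short, and 7 members reach more than 10-fold from their lowest to their highest tree.

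The order of the members was much alike in all trees. Between 181 and 188 of the 200 were also among the 200 most abundant of the single library, and 143 were so in all 12 libraries. All of the first 50 were among these 143. Only 5 members ranked that high in fewer than 6 libraries, namely ap_2371, ap_4128, ap_2706, ap_2932 and ap_73488. Spearman's correlation of a library's order of the 200 with the mean order lay between 0.919 and 0.971 across members of 1 library, and the mean order contains each library.

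The single most abundant transcript was ap_2315. Its level, given from here on as TMM-scaled CPM, was 20823, 22006 and 26593 in bluish trees (lowest, median and highest) and 19478, 24385 and 26792 in green trees. It took between 1.99% and 2.67% of the counts of a library. Green tree 6 was lowest and green tree 5 highest, and the range of green trees enclosed that of bluish trees.

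The next in order were ap_2297 and ap_2474. For ap_2297 the levels were 11791, 13532 and 14920.0 CPM in bluish trees and 8738, 12375 and 18938 CPM in green trees. For ap_2474 they were 11495, 12383 and 12787 CPM in bluish trees and 9846, 11644 and 13579 CPM in green trees. In both, green tree 5 was lowest and green tree 2 highest, so that green trees spanned the wider range.

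The fourth, ap_2316, had 9707, 11064 and 13851 CPM in bluish trees and 7148, 10955 and 13909.9 CPM in green trees. The fifth, ap_3225, had 8016, 9598 and 10082 CPM in bluish trees and 7904, 8267 and 10455 CPM in green trees. Green tree 3 was lowest in both. The sixth, ap_16870, was the most variable of the first 10, with an SD of 29.8% of its mean over the 12 trees.

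The levels of ap_16870 were 4571, 6335 and 9309.5 CPM in bluish trees and 4428, 8304 and 10731 CPM in green trees. The seventh, ap_13651, had 5730.0, 6415 and 6735 CPM in bluish trees and 5791, 6829 and 7926 CPM in green trees. These 2 transcripts had their highest level in green tree 5. The last 3 of the first 10 were ap_3100, ap_4272 and ap_2409, with means of 5966, 5535 and 4898 CPM.

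The spread between trees differed widely among the members. The SD over the 12 trees was 11.9% of the mean for the median member. It was 13.0% for the next 200 transcripts in rank, 11.6% for the 3385 other transcripts with a mean of at least 50 CPM, and 17.8% for all transcripts tested. It was under 10% in 62 members, under 20% in 158 and under 50% in 193. Of these lists, the next 200 in rank are the nearest to the members in depth.

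The steadiest members were ap_2368, ap_2942 and ap_6341, none of them described. Levels of ap_2368 were 773, 878 and 926 CPM in bluish trees and 831, 850.4 and 908 CPM in green trees, with an SD of 4.52% of the mean. Levels of ap_2942 were 917, 959 and 1024 CPM in bluish trees and 859.5, 923 and 985 CPM in green trees, with an SD of 5.29%. Levels of ap_6341 were 505, 558 and 573 CPM in bluish trees and 475, 546 and 566 CPM in green trees, with an SD of 5.56%. In each, the highest of the 12 trees was at most 1.21 times the lowest.

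**Figure D2:**
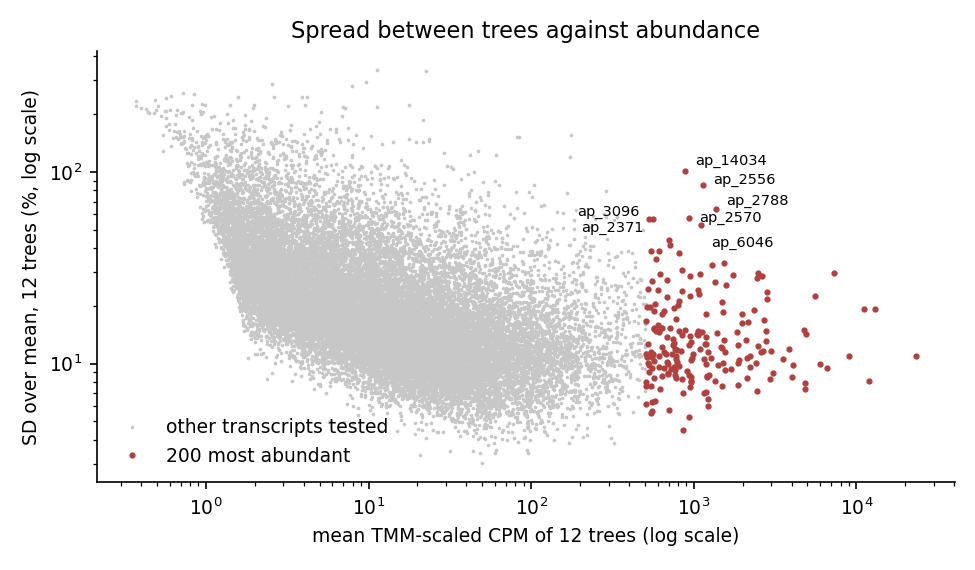
SD over the 12 trees as a percent of the mean against mean TMM-scaled CPM, both on log scales, for the 200 members (red) and the other transcripts tested (grey). The 7 named points are the members whose highest tree was more than 10-fold above the lowest, with ap_14034 highest at 101%.

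A small set of members had a wide range between trees. The highest tree was more than 10-fold above the lowest in 7 members (3.5%), against 0.945% of the other transcripts with a mean of at least 50 CPM and 5.58% of all transcripts tested. More than 2-fold was reached by 43 members (21.5%), against 22.5% of the next 200 transcripts in rank, 15.5% of those other transcripts and 42.0% of all tested, so that this share was close to that of the next 200. Over 10-fold, the next 200 held 1 transcript (0.5%). The rule ranks by the arithmetic mean, so a transcript low in some trees can enter through the trees where it is high. Ranked by the geometric mean of CPM + 1, ap_2556, ap_14034, ap_2371 and ap_3096 were not among the first 200. The shares over 10-fold thus depend in part on the rule. The 7 members were ap_2556, ap_14034, ap_2788, ap_2570, ap_3096, ap_6046 and ap_2371, of which ap_2570 and ap_3096 are named because of these values.

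The widest range was that of ap_2556, at 158-fold. Its levels were 19.9, 736 and 3131 CPM in bluish trees and 33.7, 1404 and 2285 CPM in green trees. Bluish trees 2, 3 and 4 and green tree 5 had 30.0, 19.9, 57.7 and 33.7 CPM, and the other 8 trees lay between 999 and 3131 CPM. Trees with low levels were of both colours, and no tree lay between 57.7 and 999 CPM.

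Among all transcripts tested, the one whose log2 level followed ap_2556 most closely was ap_72526, which matched a hexosyltransferase and ranged from 0.0286 to 37.8 CPM. Pearson's r of log2(CPM + 1) was 0.99 over the 12 trees. The transcript most opposed to it was ap_91455, with r of -0.98 and levels from 0 to 2.36 CPM. A match of assembled transcripts with each other was not tested, and reads of near-identical copies may be split between them.

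The pattern of ap_14034 was another one. Its levels were 67.5, 727 and 1571 CPM in bluish trees and 53.9, 693 and 2769 CPM in green trees, 51.4-fold from lowest to highest. Bluish trees 3, 4 and 5 and green trees 2, 4 and 6 had between 53.9 and 199 CPM, and the other 6 trees between 1187 and 2769 CPM. Low levels thus occurred in 3 trees of each colour.

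The hexosyltransferase ap_2788, of a family that passes sugars from nucleotide sugars to acceptors, was low in 1 tree of each colour. Its levels were 43.6, 1853 and 2627 CPM in bluish trees and 82.0, 1091 and 2076 CPM in green trees. Bluish tree 6 and green tree 4 were the 2 low trees, and the next lowest, green tree 3, had 830.2 CPM. The range was 60.3-fold.

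In ap_2570, bluish trees 1 and 5 had 33.1 and 57.8 CPM, whereas every other tree had at least 597 CPM. Levels of bluish trees were 33.1, 1269 and 1781 CPM and those of green trees 597, 879.9 and 1223 CPM. The transcript most like it was ap_8560, which carries a domain of the plastid lipid-associated fibrillins and ranged from 0.566 to 143 CPM (r of 0.95 over the 12 trees). In ap_3096, bluish tree 6 was alone at 32.3 CPM, the levels being 32.3, 645 and 1121 CPM in bluish trees and 181, 476 and 705 CPM in green trees.

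**Figure D3:**
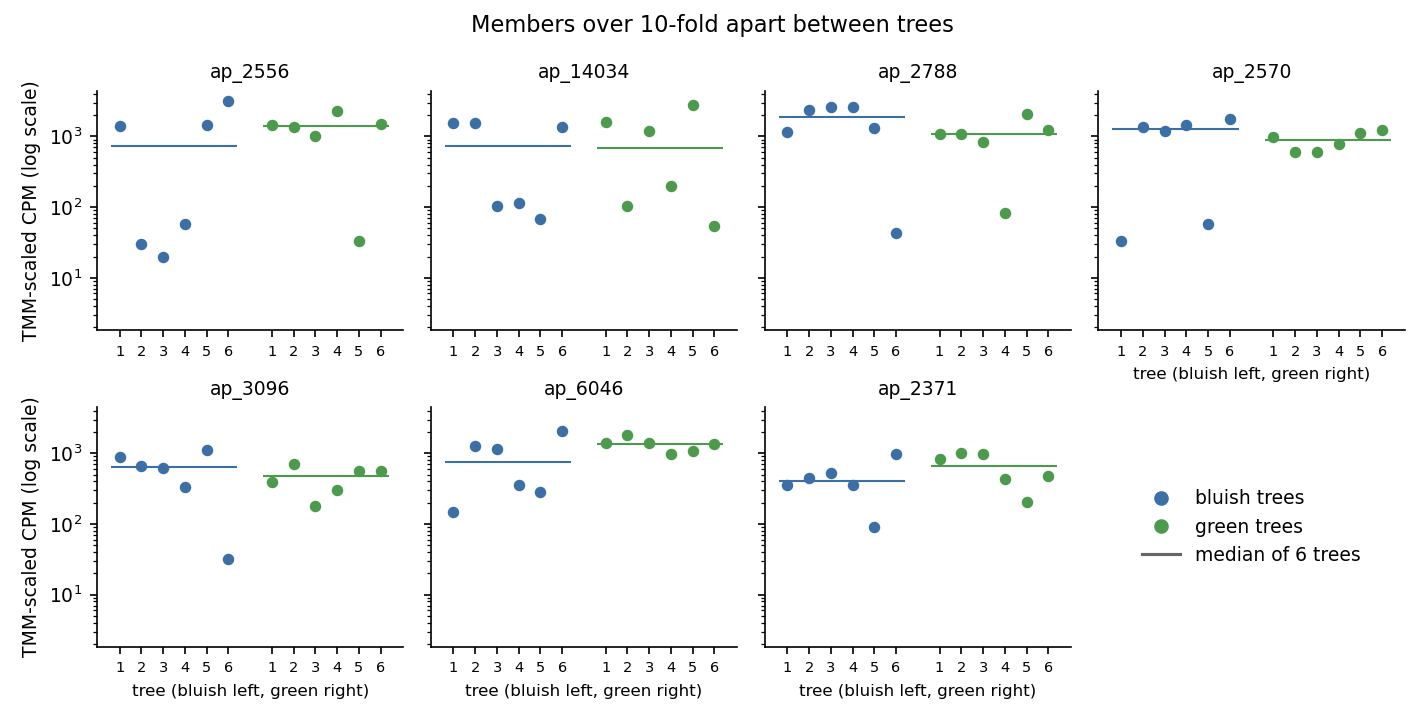
TMM-scaled CPM (log scale) in each of the 6 bluish and 6 green trees for the 7 members with more than 10-fold between lowest and highest tree, with the median of each colour as a line. The trees that are low differ from member to member, for example bluish trees 2, 3 and 4 and green tree 5 in ap_2556, against bluish trees 1 and 5 in ap_2570.

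The remaining 2 of the 7 were the early light-induced protein ap_6046 and the undescribed conifer match ap_2371. Levels of ap_6046 were 149.9, 753 and 2041 CPM in bluish trees and 989, 1371 and 1815 CPM in green trees. Bluish trees 1, 4 and 5 were low, with 149.9, 355 and 281 CPM, and bluish tree 6 was the highest of all. Levels of ap_2371 were 89.9, 402 and 983 CPM in bluish trees and 203, 658 and 1019 CPM in green trees, with bluish tree 5 lowest.

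The second early light-induced protein among the members, ap_76671, had 151, 624 and 889.8 CPM in bluish trees and 569.7, 725 and 1312 CPM in green trees. Its low tree was bluish tree 5. In the annotation at hand, 7 transcripts matched this protein, 2 of them members, and the lowest of the 12 trees was bluish tree 5 in each but ap_6046, where it was bluish tree 1. These 7 were listed because of their colour difference in these trees, so their directions are not independent of each other or of that choice.

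Levels of the 7 transcripts went together across trees. Over the 12 trees, r was 0.97 between ap_76671 and ap_326. The conifer match ap_2371 is not one of the 7, and its r with the early light-induced protein ap_35128 was 0.99. For ap_6046, r was lower, between 0.59 and 0.84 with the other 6 early light-induced proteins. All these transcripts come from the same libraries, and the assembled copies may share reads.

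Chalcone synthase was present with 1 abundant transcript and 2 others of far fewer reads. Levels of ap_2423 were 446, 731 and 1066 CPM in bluish trees and 302, 512 and 638 CPM in green trees. The others, ap_8038 and ap_5395, had means of 23.2 and 4.22 CPM. Green tree 3 was lowest and bluish tree 2 highest in both ap_2423 and ap_8038, which had an r of 0.96 over the 12 trees.

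**Figure D4:**
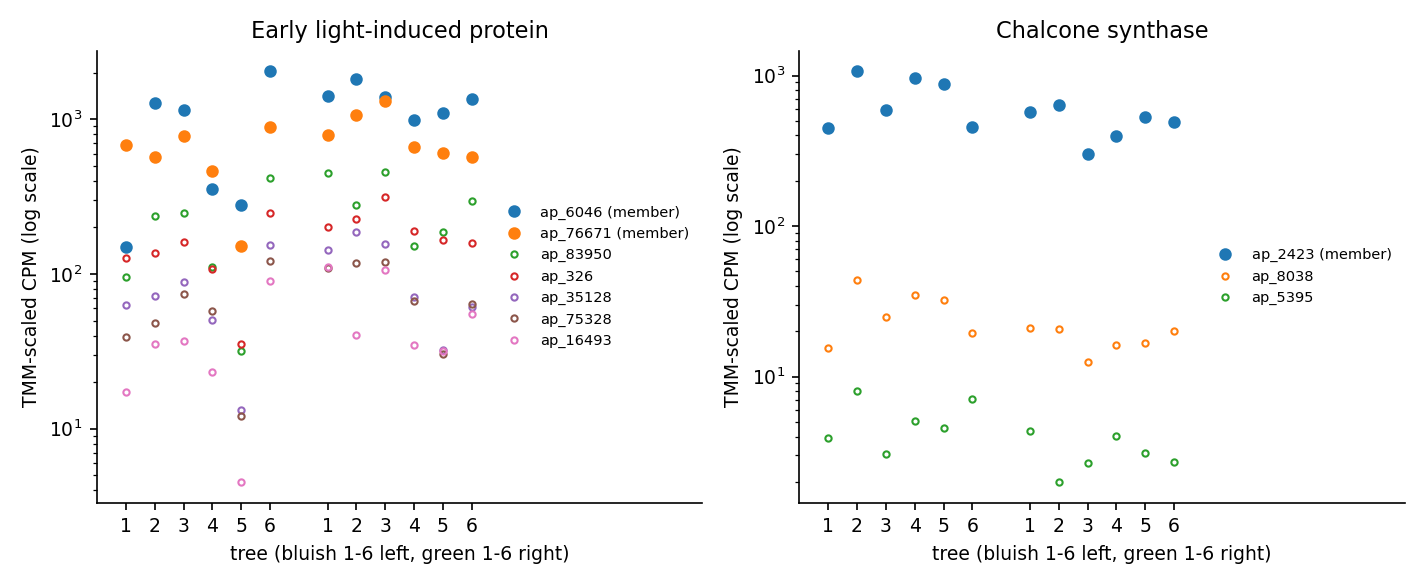
TMM-scaled CPM (log scale) in each tree of the transcripts matching an early light-induced protein (left) and chalcone synthase (right), with members as large filled points and other transcripts as small open points. Bluish tree 5 is the lowest point of each early light-induced protein transcript but ap_6046, and ap_2423 lies above the other 2 chalcone synthases in every tree.

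The members with a gene ontology term but no description were ap_3044 (transfer of glycosyl groups), ap_5275 and ap_2703 (response to oxidative stress), ap_4270 (response to chemical), ap_642 (metal ion binding), ap_2 (nucleus) and ap_4128 (response to stimulus). Their means were 2774, 1883, 606, 1482, 1094, 670.5 and 543 CPM in that order. The steadiest of them was ap_5275, with 1733, 1812 and 2125 CPM in bluish trees and 1729, 1837 and 2058 CPM in green trees. The most variable was ap_4128, with 263, 628 and 874 CPM in bluish trees and 294, 443 and 833 CPM in green trees.

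Whether needle colour went with the level of the abundant transcripts was asked with edgeR's quasi-likelihood test, adjusted over all transcripts tested by the Benjamini-Hochberg procedure. A transcript was called with FDR under 0.05 and a logFC over 1 in size, a positive logFC being higher in bluish trees. None of the 200 members was called, against a background of 0.00428% (1 of 23352). DESeq2 also called 0 members, with a background of 0.0942%. The count was 0 as well by the exact test of edgeR, whether 1 dispersion was shared by all transcripts (background 1.96%) or each had its own (0.0557%), and by its likelihood ratio test (0.0642%). At FDR under 0.05 with any fold, the count of members was 0 by each of these tests too. The backgrounds were then 0.00428%, 0.128%, 2.38%, 0.0685% and 0.0771% in the same order. In bulk needles, fewer cells of a type and less RNA per cell cannot be told apart.

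At an unadjusted p under 0.05 there were 8 members (4%), against 6.33% of all transcripts tested. Of these, 4 were higher in bluish trees (2%, against 3.21%) and 4 in green trees (2%, against 3.12%). By DESeq2 there were 16 members (8%), against 7.37%. The lowest FDR of any member was 0.770 by edgeR's quasi-likelihood test. The bluish and green trees did not overlap in 0 members, against 0.193% of the transcripts tested.

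The differences were small as well as uncalled. The logFC of the members ran from -0.62 to 0.66 with a median of 0.01, and 107 were positive and 93 negative (53.5% positive, against 50.1%). The median size of the logFC was 0.08 in the members and 0.11 in all transcripts tested, with a median SE of 0.0987 and 0.148. A logFC over 0.5 in size occurred in 7 members (3.5%, against 7.98%), and over 1 in 0 members (against 1.97%).

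For 190 of the 200 members the 95% interval of the logFC, not adjusted for the number of members, stayed within 1 of 0. The 10 others were the 7 members of wide range together with ap_76671, ap_2423 and ap_74758. In these the data leave room for a change of more than 2-fold, and for ap_2556 the interval ran from -2.71 to 2.06.

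**Figure D5:**
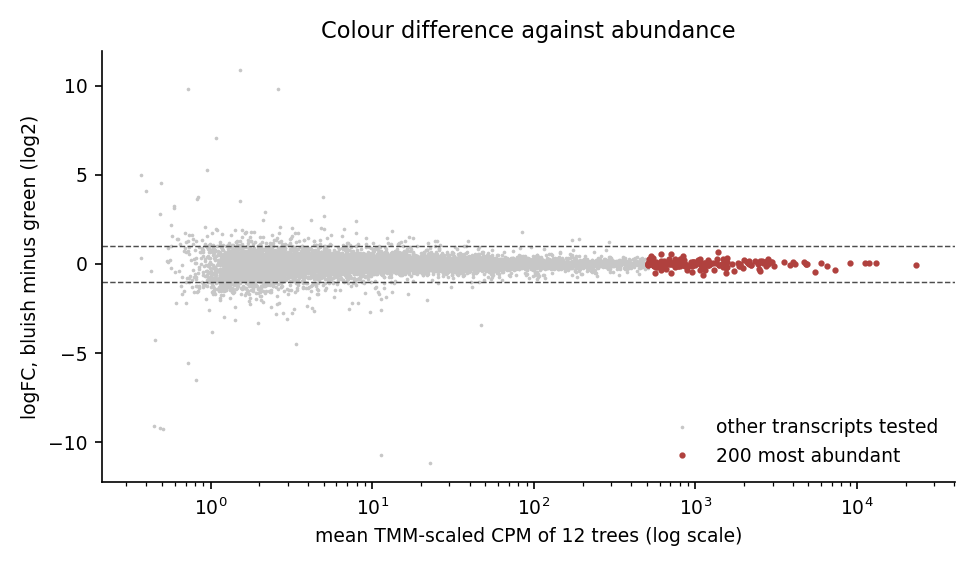
LogFC (bluish minus green, log2) against mean TMM-scaled CPM (log scale) for the 200 members (red) and the other transcripts tested (grey), with dashed lines at a logFC of 1 in size. All members lie between the lines, from -0.62 to 0.66.

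The lowest p of any member belonged to ap_4272, the ninth in abundance. Its levels were 4045, 4246 and 6418 CPM in bluish trees and 4645, 6676 and 7160.2 CPM in green trees. The bluish median was exceeded by all 6 green trees, and the colours overlapped, bluish tree 3 lying above green trees 2, 5 and 6. The logFC was -0.44 (SE 0.132, 95% interval -0.73 to -0.16), with p of 0.0052 and FDR of 0.770 by edgeR's quasi-likelihood test, so that ap_4272 did not pass.

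The 7 others with an unadjusted p under 0.05 were ap_3215, ap_3824 and ap_14368, with a negative logFC, and ap_2423, ap_3238, ap_13639 and ap_2302, with a positive one. Their logFC values were -0.47, -0.16, -0.52, 0.58, 0.23, 0.25 and 0.45 in that order. None passed after adjustment. In ap_14368, bluish trees had 889, 1301 and 1590.1 CPM and green trees 1011, 1706 and 2676 CPM.

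The largest positive values were those of ap_2788, ap_2423 and ap_74758. For ap_2788 the logFC was 0.66 with an SE of 0.735, and for ap_2423 it was 0.58 with an SE of 0.245. Levels of ap_74758 were 462, 721 and 1519.7 CPM in bluish trees and 377, 576 and 791 CPM in green trees, with a logFC of 0.53 (SE 0.268). Bluish tree 2 was the highest in both ap_2423 and ap_74758, and without it the logFC of ap_74758 was 0.27. Without green tree 4, one of its 2 low trees, ap_2788 had a logFC of 0.41.

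The largest negative values were those of ap_6046, ap_14368 and ap_2371, with logFC of -0.62 (SE 0.511), -0.52 (SE 0.207) and -0.51 (SE 0.477). The value of ap_6046 was -0.40 without bluish tree 1 and -1.07 without bluish tree 6. That of ap_2371 was -0.30 without bluish tree 5 and -0.89 without bluish tree 6. Over the early light-induced proteins at hand, the logFC was negative in 7 of 7, from -0.50 to -0.88, with FDR between 0.800 and 0.877. Over the 3 chalcone synthases it was positive in each, at 0.58, 0.67 and 0.75, with an FDR of 0.770. Both families are known here only from a list of the widest colour differences in these trees. The sizes of their logFC are therefore not independent of that choice, nor the shared signs of each other. By edgeR's quasi-likelihood test neither family held a called transcript.

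Single trees were at the extreme in many members. Green tree 2 had the highest level of the 12 trees in 55 members (27.5%), against 12.6% of the other transcripts with a mean of at least 50 CPM. Green tree 6 was highest in 2 members (1%, against 6.88%). The lowest level fell in bluish tree 5 for 34 members (17%, against 14.2% of those other transcripts), green tree 4 for 34 (17%, against 10.6%), bluish tree 6 for 31 (15.5%, against 12.3%), green tree 6 for 31 (15.5%, against 10%) and green tree 3 for 27 (13.5%, against 11.3%). These 5 trees were thus often lowest outside the members too, as was green tree 5 (11%), which was lowest in 18 members (9%). Green tree 2 also had the largest library and the lowest TMM factor, and the part of these in its count of members was not tested.

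Green trees were the more variable colour for most members. The SD as a percent of the mean was larger in green trees for 143 members and larger in bluish trees for 57, with medians of 12.9% and 9.93%. The same held for 63.5% of the 3385 other transcripts with a mean of at least 50 CPM, against 71.5% of members. With each green library left out in turn, an alternative added after the data were seen, the number ran from 130 to 152, and it was 130 without green tree 2.

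Some members varied together from tree to tree within a colour. After subtracting the mean of each colour, Pearson's r of log2(CPM + 1) had a median of 0.19 over the 19900 pairs of members, with 5% of pairs under -0.49 and 5% over 0.74. Values over 0.9 occurred in 74 pairs and values under -0.9 in 0 pairs. All pairs have the same 12 trees, library totals and TMM factors in common.

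Pairs over 0.9 linked 77 members into 17 groups. A member joined a group through r over 0.9 with any 1 of its members, so other pairs within a group can be lower. Transcripts outside the members were not linked in this way, so the counts have no background. The largest group held 35 members, headed by ap_2315 and ap_3100, and included ap_2371 and the oxidative stress member ap_2703. Its summed level was 63966, 71507 and 76956 CPM in bluish trees and 61674, 74815 and 79377 CPM in green trees. Green tree 2 was the highest of the 12 trees in 16 of the 35, and bluish tree 5 the lowest in 14.

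The group of ap_16870, ap_2664, ap_88143 and ap_14368 varied more. It summed to 8008, 11258 and 15712 CPM in bluish trees and 8207, 14676 and 19334 CPM in green trees. All 4 had a negative logFC, from -0.52 to -0.30, as did 93 of the 200 members, and none passed. They were grouped because they varied together, so their shared sign does not count as 4 separate results. Green trees 3 and 5 were the highest and bluish tree 6 the lowest, with green tree 1 next to it at 8207 CPM.

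The closest pair was ap_10465 and ap_5219, with r of 0.99. Levels of ap_10465 were 679, 759.7 and 821 CPM in bluish trees and 641, 761 and 916 CPM in green trees, and those of ap_5219 were 599.8, 687 and 738 CPM and 575, 678 and 843 CPM. Next came ap_21188 and ap_4182, with r of 0.98, both highest in green tree 2 at 1940.0 and 1004 CPM. Levels of ap_21188 were 1163, 1414 and 1499.9 CPM in bluish trees, and those of ap_4182 were 609.6, 727 and 779.9 CPM.

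The most opposed pairs were less tight. For ap_4859 and ap_13629 r was -0.89, with levels of ap_4859 of 344, 552 and 725 CPM in bluish trees and 383, 536 and 795 CPM in green trees, and levels of ap_13629 of 484, 528 and 643 CPM and 389, 529.7 and 566 CPM. Bluish tree 6 and green tree 5 were at opposite ends of the 2 transcripts. For ap_3401 and ap_72634 r was -0.88, with green tree 3 highest in the first at 2729 CPM and lowest in the second at 863 CPM.

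RNA of other organisms on the needle surface was looked at with 14 transcripts whose described match was a green alga. None was a member, and the list they come from described only 5 members. Their summed level was 19.4, 31.1 and 46.3 CPM in bluish trees and 37.0, 51.5 and 207 CPM in green trees, with green tree 4 highest. These 14 are known here only from a list of the widest colour differences in these trees. Their difference between the colours is therefore not independent of that choice. Against members of at least 500 CPM, these sums were low. The list is only a part of the annotation, so the sums do not measure all algal RNA of a library. The share of members from other organisms was not tested where no description was at hand.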

How the data were processed

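Needle RNA of 6 bluish and 6 green trees was sequenced, and trees were grouped by the phenotype label. The deposited values were raw read counts for each assembled transcript. To make them, the authors used SeqTrimBB for trimming, Trinity for the assembly, BWA MEM for mapping and sam2counts for counting. Members were ranked by mean CPM from library totals. Other levels were CPM on TMM-scaled library sizes, and only transcripts that reached 2 CPM in 2 or more libraries were tested (23352). The colours were compared in R 4.3.3 by the quasi-likelihood test of edgeR 4.0.16 with limma 3.58.1, without covariates and with Benjamini-Hochberg adjustment. The SE is |logFC| over the square root of F. DESeq2 1.42.0 served as an alternative. Tables and plots came from Python 3.11.15 (pandas 2.3.3, numpy 2.4.6, matplotlib 3.10.9). The code was checked on simulated counts.

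Named members were the 10 most abundant, those described, the 3 highest and 3 lowest logFC, the 3 largest and 3 smallest spreads, the last 3 inside and first 3 outside the rule, and the 2 most positive and 2 most negative pairs. Further members are named for an unadjusted p under 0.05, a gene ontology term, a range over 10-fold or a linked group, after their values were known. The members and lists were chosen with earlier results of these data known. No 2 libraries of a colour agreed within sampling noise (chi-square over degrees of freedom 33.6 or more). Sequences, lengths and RT-qPCR were not analysed here.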

Additional observations from a re-analysis of the deposited data

Results flagged for a closer look

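Among the named members and the members' share of the counts, 72 groups of 6 trees were examined for a tree far from the other 5. Such a tree was found in 4 groups, a share near the 1 in 20 that chance gives. The 4 members concerned were named for a small spread or a close correlation, so that rate need not apply to them. In bluish trees, ap_2368 was lowest in tree 6 at 772.8 CPM, with the other 5 between 875 and 926 CPM. In green trees, ap_6341 was lowest in tree 6 at 474.5 CPM, with the others between 532 and 566 CPM. Both are among the steadiest members, so the gaps are small in size. Green tree 2 was highest in ap_21188 at 1940.0 CPM, with the others between 1223 and 1444 CPM, and in ap_4182 at 1004 CPM, with the others between 613 and 709 CPM. These 2 transcripts form one of the closest pairs and do not count as separate cases.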

How the results depend on the processing

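Under every alternative tried, 0 of the 200 members were called. These were DESeq2, edgeR's likelihood ratio test and its exact test with either dispersion, robust fitting, other scaling (none, RLE, or from the other transcripts alone), filterByExpr or no filter, FDR alone, and each library left out (0 to 0). Over all transcripts tested, 1 was called by the quasi-likelihood test, 22 by DESeq2, 457 by the exact test with one dispersion for all, 13 by the exact test with a dispersion per transcript, 15 by the likelihood ratio test, 3 after filterByExpr, and 1 to 2 with a library left out. With the tree number as a replicate block the count was 0 members and 0 transcripts in all. In the quasi-likelihood fit of all libraries no member had a logFC over 0.66 in size, so the fold threshold alone excluded every member there. The deviations of same-numbered bluish and green trees had correlations from -0.17 to 0.11. The closest green tree of each bluish tree reached only 0.096 to 0.27. These values are too low throughout to decide whether the numbers pair the trees.

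The logFC of 17 members (those whose logFC or interval is given, with ap_2664 and ap_88143 added after the data were seen) kept its sign under all 23 alternatives, and the lowest FDR among them was 0.206, for ap_4272 by DESeq2. Leaving out 1 library moved some of these uncalled values by over 1.5 times, within 0.41 to 0.96 for ap_2788, 0.27 to 0.65 for ap_74758, 0.16 to 0.29 for ap_13639, -1.07 to -0.40 for ap_6046, -0.89 to -0.30 for ap_2371, -0.66 to -0.31 for ap_76671, -0.41 to -0.19 for ap_2664 and -1.11 to -0.07 for ap_2556. With the tree number as a replicate block, the values went beyond these ranges for ap_2556 (from -0.33 to -2.20) and ap_6046 (from -0.62 to -1.125), both still uncalled. Of the 25 other named members, none of them called, 14 changed sign under at least 1 alternative, and the median size of their logFC was 0.023. The members' median share of 33.4% became 26.4% with 100 members and 40.9% with 400, and lay between 33.2% and 33.6% with a library left out. Other rankings kept 193 to 200 of the members, leaving a library out kept 197 to 200, and a list of 100 kept 100 by construction. The geometric mean of CPM + 1 kept 196, and those left out, ap_2556, ap_14034, ap_2371 and ap_3096, are members of wide range. The median SD of 11.9% of the mean was 11.1% in CPM without TMM, and 11.3% to 12.2% with a library left out. Spearman's correlation was -0.91 for ap_4859 and ap_13629, -0.80 for ap_3401 and ap_72634 and 0.96 for ap_21188 and ap_4182. Leaving a library out gave Pearson's r of -0.93 to -0.86, -0.93 to -0.80 and 0.96 to 0.99 for these pairs, and 0.98 to 0.99 for ap_10465 and ap_5219. The cause of these shifts was not tested. Fewer reads or more trees were not tried.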
